A study of Mus musculus with 8 samples.

Results

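The genes described here encode the proteins of the mitochondrial ribosome, in livers of wild-type mice and of mice heterozygous for eIF2α. Members were the genes whose symbol begins with Mrpl or Mrps followed by a number, with symbols of pseudogenes (-ps) left out, and the rule found 78 of the 56077 rows of the deposited count table. All 78 passed the filter on low counts and were among the 14261 genes tested. All samples were livers of C57BL/6 mice aged 6 months, lean and fed without restriction, killed in the fed state in the morning. The control group held 4 mice labelled wild type, and the other group held 4 mice with the genotype label Eif2a flox/+ and a title that reads eIF2α flox/+. No label names a recombinase, a Cre driver or the sex of the animals. The husbandry label uses the word wild-type for animals of either genotype. Columns W32, W33, W76 and W90 of the table hold the wild-type libraries, and columns H11, H12, H15 and H75 the heterozygous ones. Litters and handling days are not stated, so p-values measure the spread between these samples.

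Mitochondria translate the few proteins encoded by their own genome, all of them core subunits of the respiratory chain and ATP synthase, on a ribosome of their own. Its rRNAs come from mitochondrial DNA, and its proteins are encoded by nuclear genes, made on cytosolic ribosomes and imported. Part of the proteins descend from those of bacterial ribosomes and the rest are particular to mitochondria. Hepatocytes are rich in mitochondria, and the genes are transcribed at a steady level in most tissues. Of the members, 51 encode proteins that assemble into the large subunit, which forms peptide bonds, and 26 proteins of the small subunit, which reads the mRNA. Mrps18a and Mrps30 carry small subunit symbols but belong to the large subunit. Mrps36 encodes a subunit of the 2-oxoglutarate dehydrogenase complex and no ribosomal protein, and is given apart.

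The members are scattered over 17 chromosomes, at most 11 on 1 of them, with none on the X chromosome, and all 78 are annotated as protein-coding in GENCODE M21 on GRCm38. In 18 members (23.1%) a protein-coding gene on the other strand starts within 1 kb upstream, against 6.79% of 21951 protein-coding genes. That background includes genes not tested here, and the share over the genes tested was not determined. Mrps12, for example, lies head to head with Sars2, the mitochondrial seryl-tRNA synthetase gene, and Mrps18b with Ppp1r10. RefSeq promoter windows (250 bases before to 50 after the annotated start, GRCm38.p6) were found for 69 members. These windows were searched on both strands for letters bound by factors known for genes of this kind: the NRF1 palindrome, CCGGAAG for ETS factors such as GABPA, and AAGATGG for YY1. The ETS and YY1 letters can overlap in the bases AAG. The ETS letters were in 34.7% of 75 member windows, against 16.5% of windows of genes tested and 8.86% of all 32851 windows. The NRF1 letters were in 17.3% of member windows, against 9.29 and 4.6%. The YY1 letters were also in 17.3% of member windows, against 6.93 and 6.34%. These shares describe letters in the windows, and no binding was measured.

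The 250 bases before the start are printed for 4 members that the results below turn on, 5′ to 3′ on the strand of the gene, with motif matches in capitals. Mrps21 (chr3:95871515-95871764, minus strand) and Mrpl12 (chr11:120484387-120484636, plus strand), both among the 3 members of highest level per listed gene length averaged over the genotypes, each hold an NRF1 match, 91 and 81 bases before the start. Mrps18a (chr17:46110754-46111003, plus strand) holds an ETS match 26 bases before the start. Mrpl20 (chr4:155802628-155802877, plus strand), the member whose groups did not overlap, holds no match of the 3 motifs in its window.
Mrps21: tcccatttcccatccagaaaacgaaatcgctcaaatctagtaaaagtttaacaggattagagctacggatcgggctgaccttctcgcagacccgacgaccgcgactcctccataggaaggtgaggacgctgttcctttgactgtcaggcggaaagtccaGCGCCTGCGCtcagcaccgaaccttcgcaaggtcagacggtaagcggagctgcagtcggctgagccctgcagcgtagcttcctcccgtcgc
Mrpl12: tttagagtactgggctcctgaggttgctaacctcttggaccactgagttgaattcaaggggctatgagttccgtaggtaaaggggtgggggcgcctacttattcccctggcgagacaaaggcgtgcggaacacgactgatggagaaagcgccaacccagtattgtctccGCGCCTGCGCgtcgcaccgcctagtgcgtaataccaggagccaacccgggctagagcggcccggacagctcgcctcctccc
Mrps18a: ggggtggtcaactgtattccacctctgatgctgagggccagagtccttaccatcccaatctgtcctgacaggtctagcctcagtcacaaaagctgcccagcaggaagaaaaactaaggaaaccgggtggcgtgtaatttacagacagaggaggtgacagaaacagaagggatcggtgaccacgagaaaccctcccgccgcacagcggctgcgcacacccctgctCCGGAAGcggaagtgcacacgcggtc
Mrpl20: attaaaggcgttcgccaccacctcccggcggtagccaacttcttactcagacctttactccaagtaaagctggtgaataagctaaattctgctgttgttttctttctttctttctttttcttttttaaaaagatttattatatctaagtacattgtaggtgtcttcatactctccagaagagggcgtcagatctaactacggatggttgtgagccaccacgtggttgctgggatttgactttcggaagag

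The deposited libraries held 22177979 to 28564357 counts after rounding, and the members took 42668 to 53883 counts of each. The genotype check was Eif2s1, which encodes eIF2α: it was at 28.4 to 32.8 CPM (read counts scaled to library size with TMM factors) in wild-type and 20.5 to 25.1 CPM in heterozygous libraries. Its log2 fold change was -0.44 (SE 0.095), without a call over all genes (adjusted p = 0.315, edgeR) but with one by DESeq2 (adjusted p = 0.0156). The liver genes Alb and Apoa1 were at 59000 to 82300 and 3650 to 8330 CPM, and the adipocyte genes Adipoq, Plin1 and Lep had at most 2 counts in a library. All 4 neutrophil markers tested had a higher heterozygous mean, with overlap of the groups, and 3 had an unadjusted p under 0.05 by edgeR. DESeq2 called Lcn2 among them (adjusted p = 0.0373), and edgeR did not (adjusted p = 0.354). The summed level of the 4 markers was 2.61 to 6.30 CPM over the wild-type libraries, and H11 had 11.5, H12 42.8, H15 4.97 and H75 24.3 CPM. Most of it was Lcn2, which hepatocytes also make in the acute phase, at 36.4 CPM in H12 and 18.7 CPM in H75. Sox9, among the cholangiocyte markers, was at 44.8 CPM in H12, 20.2 CPM in H75 and 7.90 to 9.57 CPM in the other libraries. The other cholangiocyte markers did not follow it. Krt19, Krt7, Epcam and Spp1 were highest in H15 (3.1, 1.91, 4.42 and 83.3 CPM) and were at 0.45, 0.1, 0.951 and 26.6 CPM in H75. Summed markers of Kupffer cells (104 to 258 and 111 to 253 CPM), sinusoidal endothelium (131 to 185 and 146 to 229), cholangiocytes (34.1 to 87.1 and 40.9 to 101) and lymphocytes (4.31 to 11.3 and 4.25 to 11.8) overlapped between wild-type and heterozygous libraries. Summed stellate cell markers also overlapped (169 to 223 and 92.2 to 247 CPM), but were lowest of the 8 libraries in H75 (92.2 CPM) and H12 (151 CPM). The part of other cell types in the values below was not tested, and in bulk tissue fewer cells of a type and less RNA per cell cannot be told apart.

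Together the members made up a small part of the counts of each library. Their summed level was 1726, 1724, 1762 and 1964 CPM in W32, W33, W76 and W90, and 1740, 2076, 1812 and 2144 CPM in H11, H12, H15 and H75. H12 and H75 lay above all wild-type libraries, H11 and H15 inside the wild-type range. Single members averaged 2.66 to 75 CPM over the 8 libraries, with a median of 21.5 CPM, and had 52 to 2178 counts in a library. Mrpl12, which forms the stalk that recruits translation factors, was the highest member by CPM in all 8 libraries, and Mrpl23 the lowest in all 8.

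Levels were compared per length, with the gene lengths of the deposited table. Mrpl52, a large subunit protein particular to mitochondria, averaged 57.6 ± 8.99 CPM per kb in wild-type and 73.5 ± 17.5 CPM per kb in heterozygous livers (SD, n = 4 each). Mrpl12 averaged 55.7 ± 4.27 and 58.2 ± 6.76 CPM per kb, and Mrps21, a small subunit protein with a bacterial homolog, 49.6 ± 5.73 and 61.3 ± 9.38 CPM per kb. These 3 led by the mean over both genotypes, and differences among them were not tested. In wild-type livers alone Mrpl30 (50.4 CPM per kb) and Mrpl42 (49.7 CPM per kb) lay just above Mrps21. At the low end were Mrps25 (3.005 ± 0.356 and 3.32 ± 0.439 CPM per kb), Mrpl47 (2.37 ± 0.150 and 2.59 ± 0.362) and Mrpl19 (2.06 ± 0.154 and 2.10 ± 0.0847). The low members are listed with lengths of 3364 to 6073 bases and the high ones with 405 to 1316 bases. The transcript to which a listed length belongs is not stated.

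None of the 78 members passed edgeR's quasi-likelihood test between the genotypes at an adjusted p of 0.05, where 0 of 14261 genes did (0% called), and the lowest adjusted p of a member was 0.437. DESeq2 called 0 members, against 1.07% of all genes, and limma-voom 0, against 0%. In the authors' deposited table the lowest adjusted p of a member was 0.265 and 0 of 78 were marked significant, where 74 of 25175 genes tested were marked. At an unadjusted p under 0.05, edgeR counted 3 members as higher and 0 as lower in heterozygous livers. Over all genes 4.9% were higher and 4.44% lower by that rule. For 75 members the log2 fold change with 2 SE on either side stayed inside a 1.5-fold change, and the SE ran from 0.0807 to 0.215. The exceptions, named after their values were seen, were Mrpl54, Mrpl52 and Mrps18b. The 2 SE are a set width, and no confidence interval was computed. On simulated data edgeR recovered 16% of genes changed 1.5-fold, so the lack of a call does not exclude changes of that size.

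The members' small differences mostly pointed one way. A positive log2 fold change, meaning a higher heterozygous mean, was found in 68 of 78 members, against 51.1% of all genes tested, and the median was 0.10, against 0.01 for all genes. Heterozygous means ran from 87.95% of the wild-type mean for Mrps2 to 134.5% for Mrpl54, and 47 members lay between 90 and 110%. The members were highest in 2 of the 8 libraries, H12 and H75. The median of the members relative to the wild-type mean was -0.05, -0.06, -0.01 and 0.13 in W32, W33, W76 and W90, and -0.03, 0.18, 0.01 and 0.24 in H11, H12, H15 and H75, on the log2 scale. Of the members, 39 (50%) had their highest value in H75, where 16.6% of all genes had theirs, and 23 (29.5%) in H12, against 17.7% of all genes. The plot of members by library shows H11 and H15 lying with W32, W33 and W76. Without H12 and H75, an alternative chosen after seeing the data, 35 of 78 members had a higher heterozygous mean and the median was -0.01. Both were left out because members were high in them, so a fall was built in. Without W90, the wild-type library with the highest median, 73 were higher and the median was 0.14. Without H12 alone 61 were higher (median 0.06), and without H75 alone 57 (median 0.06). With library totals alone as the scaling, 44 members were higher and the median was 0.00. By that scaling the median of all genes moved to -0.08, and 34.4% of them had a positive value.

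**Figure D1:**
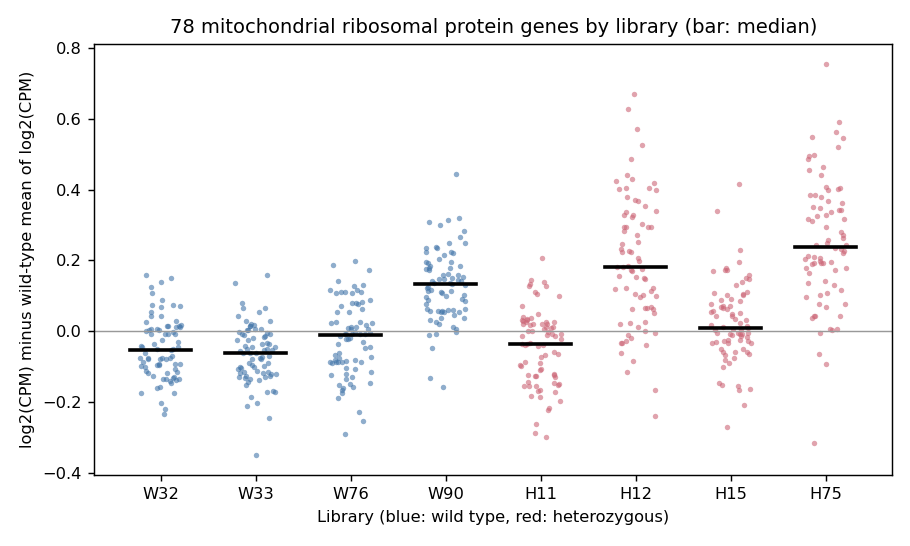
Each point is 1 of the 78 mitochondrial ribosomal protein genes in 1 library, as log2 CPM minus the mean of that gene's log2 CPM over the 4 wild-type libraries, and the bar is the median of the library. W90, H12 and H75 sit high, with medians of 0.13, 0.18 and 0.24, and the other 5 libraries lie near 0.

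Spread between livers was small in both groups. The median coefficient of variation of a member was 8.75% over wild-type and 12.0% over heterozygous libraries, against 13.2 and 17.3% for all genes tested. In 55 of 78 members it was larger among heterozygous libraries. The share over all genes, whose median was larger there as well, was not determined. In the fold change plot, both subunits are spread around the same small positive value. The large subunit had 45 of 51 members with a higher heterozygous mean and a median of 0.09, and the small subunit 22 of 26 and a median of 0.12. Without H12 and H75, where a fall was built in, both medians were below 0 (-0.01 and -0.04), with 24 and 10 members higher. With library totals alone the 2 medians were 0.00 and 0.03, where the median of all genes was -0.08. Members with a bacterial homolog (44 of 48 higher, median 0.10) and members particular to mitochondria (23 of 29, median 0.09) were as close to each other, and the latter had a median of -0.00 and 14 members higher with library totals alone. Differences between these subgroups were not tested.

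**Figure D2:**
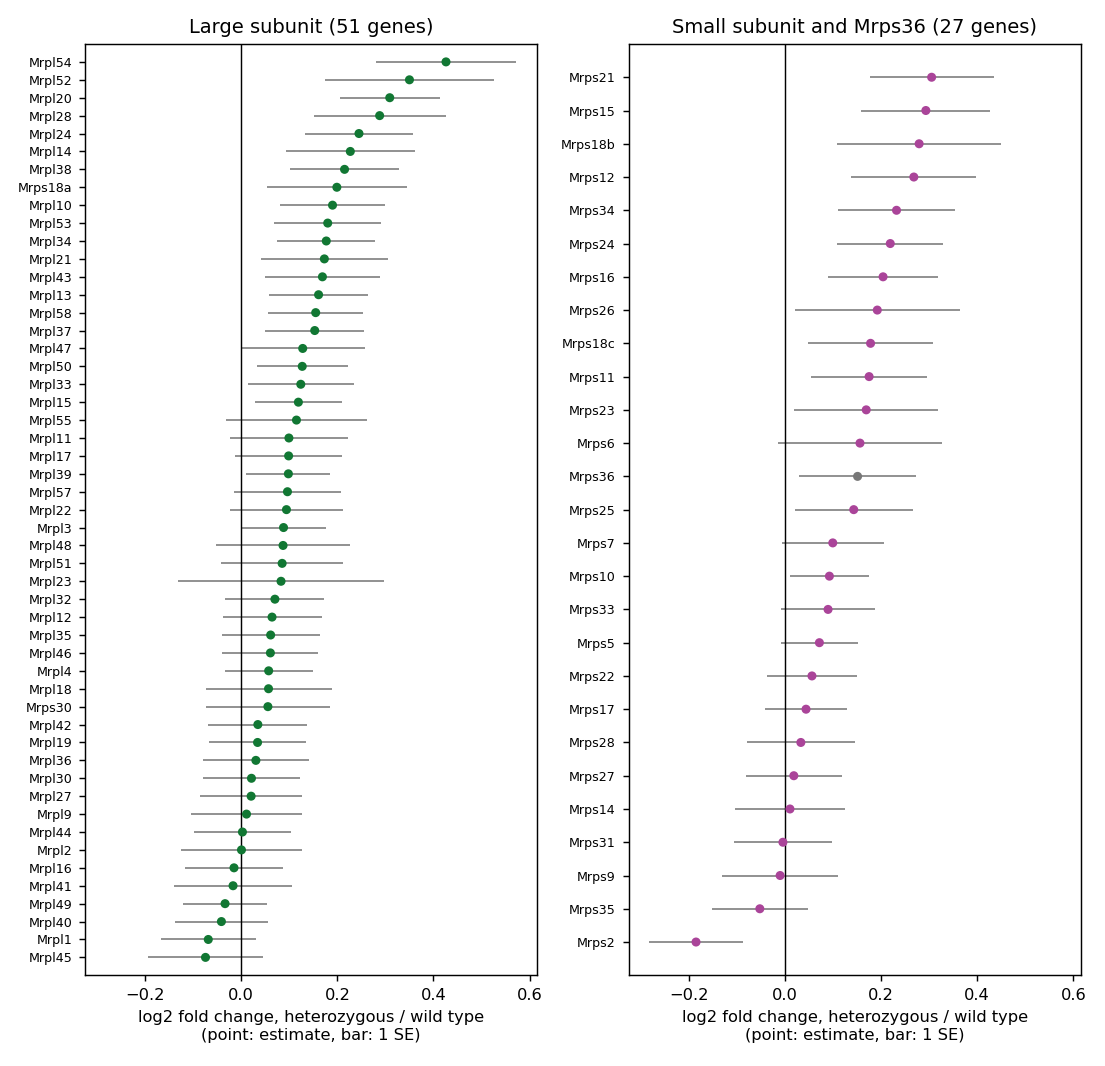
Points are log2 fold changes (heterozygous over wild type) and bars 1 SE, for 51 large subunit members on the left and 26 small subunit members with Mrps36 (grey) on the right. Most points lie between 0 and 0.3, 68 of 78 are above 0, and Mrps2 is lowest at -0.19.

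In the large subunit, Mrpl20, an rRNA-binding protein with a bacterial homolog, was the 1 member of all 78 whose groups did not overlap, where 2.06% of all genes lay higher and 2.32% lower without overlap. It was at 26.2, 23.8, 23.5 and 26.5 CPM in W32, W33, W76 and W90, and at 27.3, 32.3, 28.6 and 35.8 CPM in H11, H12, H15 and H75. The heterozygous libraries were all higher, H11 by little. Mrpl20 (ENSMUSG00000029066, chromosome 4, 155802878 to 155809975, plus strand) averaged 25.0 ± 1.57 and 31.0 ± 3.82 CPM (SD, n = 4 each). By edgeR its log2 fold change was 0.31, with an SE of 0.104 and an adjusted p of 0.437. Over 18 alternatives its adjusted p ran from 0.171 to 0.928.

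Mrpl54, a protein particular to mitochondria, had the highest fold change. It was at 10.6, 10.1, 9.64 and 11.7 CPM in wild-type libraries in the order above and at 11.5, 15.1, 12.3 and 17.7 CPM in heterozygous ones. W90 lay just above H11, and H12 and H75 were the high libraries. Mrpl54 (ENSMUSG00000034932, chromosome 10, 81264713 to 81266934, minus strand) differed by 0.43 on the log2 scale (SE 0.146, adjusted p = 0.450, edgeR), from 250 to 391 counts a library. Mrpl24, at the exit of the peptide tunnel, was at 36.3, 38.7, 39.6 and 45.3 CPM and at 42.7, 50.4, 41.8 and 54.6 CPM. W90 again overlapped the heterozygous range (log2 fold change 0.24, SE 0.112, adjusted p = 0.544, edgeR). Exons of Mrpl24 overlap Rrnad1 on the other strand, and its counts carry fractions in all 8 libraries. Mrpl28 was at 25.2, 26.7, 25.6 and 30.4 CPM and at 29.6, 36.5, 26.0 and 39.7 CPM, with H11 and H15 inside the wild-type range. Mrpl52, the member of highest level per length, was at 23.1, 23.5, 20.4 and 29.4 CPM and at 25.1, 38.0, 23.8 and 36.0 CPM, again high in H12 and H75.

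Large subunit members with a lower heterozygous mean were close to no difference. Mrpl1, of the stalk through which spent tRNA leaves, was at 18.8, 21.9, 23.7 and 22.5 CPM in wild-type and at 20.6, 22.7, 19.3 and 20.3 CPM in heterozygous libraries (log2 fold change -0.07, SE 0.0989). Mrpl45, which holds the ribosome to the inner membrane, averaged 17.8 ± 2.02 and 16.9 ± 1.97 CPM (SD, n = 4 each). Mrpl40, a protein of the central protuberance, averaged 13.5 ± 1.07 and 13.2 ± 0.686 CPM, and Mrpl49 24.8 ± 2.28 and 24.3 ± 0.451 CPM. In Mrpl12, the most abundant by CPM, the groups were at 67.4, 73.3, 71.7 and 80.9 CPM and at 65.9, 83.9, 72.8 and 84.0 CPM (log2 fold change 0.06, SE 0.103). Its value was -0.03 with library totals alone, where the median of all genes was -0.08. It was also negative (-0.08) without H12 and H75, its highest libraries, where a fall was built in.

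In the small subunit, Mrps21, Mrps15, Mrps12 and Mrps24 had the lowest p among members with a higher heterozygous mean. Mrps21 (ENSMUSG00000054312, chromosome 3, 95862634 to 95871519, minus strand) was at 20, 19, 18 and 23.3 CPM in wild-type libraries and at 21.5, 28.0, 21.5 and 28.2 CPM in heterozygous ones. H11 and H15 lay below W90, and H12 and H75 above all (log2 fold change 0.31, SE 0.129, adjusted p = 0.507, edgeR). Mrps12, which lines the decoding centre, was likewise highest in H12 and H75, with 21.7, 23.6, 25.1 and 24.7 CPM and 24.4, 31.4, 24.0 and 34.7 CPM. Mrps15, an rRNA-binding protein, averaged 18.6 ± 1.97 and 22.8 ± 3.88 CPM (SD, n = 4 each). Mrps24, with a bacterial homolog, averaged 32.6 ± 3.04 and 38.0 ± 4.69 CPM, and its exons overlap Urgcp on the same strand.

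Mrps2, a small subunit protein with a bacterial homolog, had the lowest fold change of all members. It was at 25.2, 23.2, 28.9 and 25.5 CPM in the wild-type libraries in the order above and at 24.0, 21.7, 24.1 and 20.6 CPM in H11, H12, H15 and H75. H12 and H75, the libraries in which most members were high, were the lowest of the 8 for this gene. Mrps2 (ENSMUSG00000035772, chromosome 2, 28468066 to 28471178, plus strand) differed by -0.19 on the log2 scale (SE 0.0975, adjusted p = 0.594, edgeR) and stayed negative in all 18 alternatives (-0.26 to -0.10). The other small subunit members with a negative value were Mrps35 (-0.05), Mrps9 (-0.01) and Mrps31 (-0.00), each within 1 SE of 0. Mrps36, of the 2-oxoglutarate dehydrogenase complex, averaged 7.18 ± 0.666 and 7.98 ± 0.674 CPM (SD, n = 4 each).

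**Figure D3:**
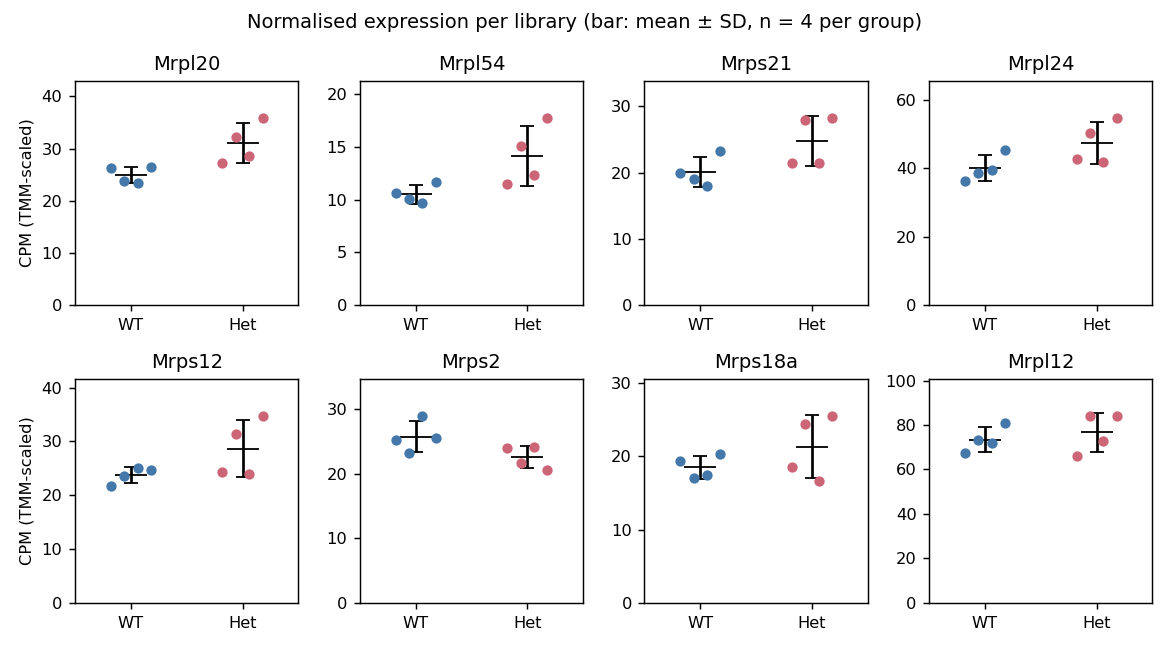
Points are CPM values of single libraries for 8 members, wild type (WT, blue) and heterozygous (Het, red), with the mean and SD (n = 4 per group) as bars and axes that start at 0. The groups do not overlap in Mrpl20, from 23.5 to 26.5 and from 27.3 to 35.8 CPM, and overlap in the other 7.

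A set of 3 paralogs descends from 1 bacterial small subunit protein: Mrps18b and Mrps18c stayed in the small subunit and Mrps18a sits in the large one. Mrps18b was the most abundant of them by CPM, at 24.0, 23.2, 27.9 and 28.3 CPM in wild-type and 26.1, 39.8, 23.2 and 36.3 CPM in heterozygous libraries. Mrps18a was at 19.4, 17.0, 17.4 and 20.3 CPM and at 18.6, 24.4, 16.7 and 25.5 CPM, and Mrps18c at 15.7, 15.3, 14.6 and 16.5 CPM and at 14.9, 20.8, 14.9 and 19.8 CPM. In all 3 only H12 and H75 lay above the wild-type range. Per length the wild-type means were 21.0 ± 1.79, 24.0 ± 2.44 and 24.4 ± 1.26 CPM per kb for Mrps18a, Mrps18b and Mrps18c. Differences among these levels were not tested. The log2 fold changes were 0.20, 0.28 and 0.18, and all 3 were negative without H12 and H75 (-0.07, -0.07 and -0.06). As H12 and H75 were the high libraries of all 3, that fall was built in. Counts of Mrps18b and Mrps18c carry fractions in 8 and 7 libraries.

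Read sharing limits a few members. Fractional counts were found in at least 1 library for 34 members, and exons overlap another annotated gene on the same strand in 8 members and on the other strand in 28. Mrpl23, at the exit of the peptide tunnel, had 52 to 82 counts a library, while its pseudogene Mrpl23-ps1, 1 of 5 rows left out by the rule, had 378 to 476. Mrpl23 thus held 10.6 to 17.2% of the counts of the pair, and its level of 2 to 3.4 CPM depends on how reads were divided between them. The log2 fold change of Mrpl23-ps1 was 0.28 (adjusted p = 0.493, edgeR), with the groups apart in CPM, and that of Mrpl23 was 0.08. The other 4 pseudogene rows had at most 4.25 counts in a library.

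Most members are short genes, and the shortest genes as a whole were also high in W90, H12 and H75. In the shortest of 5 equal length classes of the genes tested (57 to 1506 bases), which holds 46 members, the median log2 fold change was 0.07 over 2797 genes and 0.16 over the members. In H75 the median of that class was 0.20 over all genes and 0.30 over the members, in H12 it was 0.13 and 0.24, in W90 it was 0.09 and 0.14, and in H11 it was -0.03 and -0.01. In the longest class (4616 bases and more) the median over all genes was -0.19 in H75 and -0.11 in H12, while the 4 members there had medians of 0.17 and 0.15. In the next class (3228 to 4615 bases) the medians over all genes were -0.06 in H75 and -0.06 in H12. The 11 members of that class had medians of 0.04 in H75, 0.15 in H12 and 0.09 in W90. Over the 3 longest classes 6 of 7, 9 of 11 and 4 of 4 members had a higher heterozygous mean, with medians of 0.10, 0.09 and 0.07. All genes of those classes had medians of 0.01, -0.02 and -0.04 and were higher in 51.3, 46.6 and 39.7%. These classes hold few members, and the differences from other genes were not tested. Across members the correlation of log2 fold change with log2 length was -0.36, a description over 78 genes of the same libraries. With the length trend of each library removed, 58 members had a positive value, the median was 0.09, and 0 were called. How far RNA quality or library preparation accounts for the trend was not tested.

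**Figure D4:**
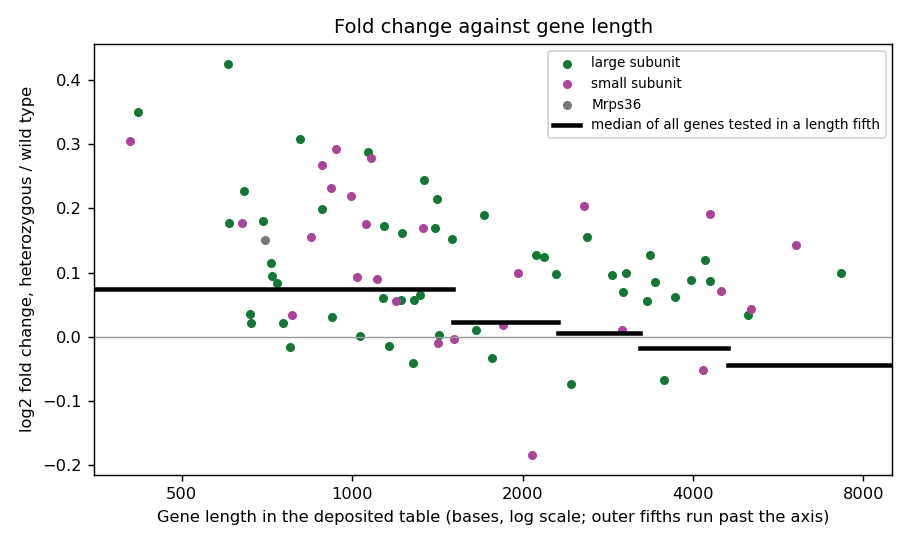
Points are the members by gene length (log scale, in bases) and log2 fold change, coloured by subunit, and black lines are medians of all genes tested in each of the 5 length classes. The lines step down from 0.07 in the shortest class to -0.04 in the longest, and the 4 members with values above 0.3 are 405 to 810 bases long.

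The other genes of mitochondrial translation were compared in the same fit, and 0 of them were called. Of 5 subunits filed under other symbols, 4 had a higher heterozygous mean (median 0.17). The median was 0.07 with library totals alone, 0.11 without H12, 0.07 without H75, and 0.00 with 3 of 5 higher without both. Among them were Gadd45gip1 at 28.7 ± 3.51 and 34.3 ± 4.64 CPM and Aurkaip1 at 35.5 ± 3.53 and 40.3 ± 6.75 CPM (SD, n = 4 each). Ptcd3 was at 28.4 ± 3.43 and 27.9 ± 2.15 CPM. Of 29 assembly factors, which modify rRNA or place proteins, 19 had a higher mean (median 0.04). The count was 10 with library totals alone, where 34.4% of all genes were positive, and 12 without H12 and H75. Malsu1, which keeps the unfinished large subunit from joining, averaged 9.42 ± 1.151 and 11.5 ± 1.61 CPM, and the helicase Ddx28 11.2 ± 0.956 and 13.9 ± 3.001 CPM. Mettl15, an rRNA methyltransferase, averaged 2.88 ± 0.245 and 2.46 ± 0.333 CPM and Gtpbp10 14.1 ± 0.664 and 13.1 ± 0.383 CPM.

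Translation factors did not share the members' direction. Of 14 tested, 5 had a higher heterozygous mean, and the median was -0.04 and stayed below 0 in all 18 alternatives (-0.129 to -0.000376, nearest to 0 without W76). Tufm, the elongation factor that delivers tRNAs, averaged 81.6 ± 6.62 and 91.3 ± 9.74 CPM (SD, n = 4 each), and the recycling factor Mrrf 17.6 ± 0.472 and 19.6 ± 2.81 CPM. Guf1 averaged 12.7 ± 1.23 and 10.9 ± 1.26 CPM and the initiation factor Mtif2 27.0 ± 2.84 and 24.7 ± 1.30 CPM. Of 10 genes of mitochondrial transcription and RNA handling 6 had a higher mean, among them Tfb2m (24.8 ± 1.29 and 27.7 ± 2.80 CPM) and Fastk (21.9 ± 1.86 and 24.2 ± 1.83), with Mterf1a (2.26 ± 0.402 and 2.05 ± 0.487) and Tefm (6.45 ± 0.521 and 6.20 ± 1.03) lower. Their median was 0.06, and -0.04 with library totals alone, where the median of all genes was -0.08.

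Among 9 regulators of mitochondrial genes, Pprc1, a coactivator of the PGC-1 family, differed by 0.57 on the log2 scale (SE 0.191, adjusted p = 0.436, edgeR). It was at 7.02, 8.29, 9.56 and 10.3 CPM in wild-type and at 11.3, 18.3, 11.2 and 11.4 CPM in heterozygous libraries, with no overlap. Without H12 its value was 0.365. Myc was at 2.86, 5.29, 2 and 2.91 CPM and at 5.10, 16.5, 7.94 and 4.30 CPM, with H11 and H75 overlapped by W33. Ppargc1a, the coactivator PGC-1α, averaged 7.90 ± 2.51 and 5.13 ± 1.28 CPM, and the receptor Esrra 24.3 ± 2.90 and 21.2 ± 3.88 CPM (SD, n = 4 each). At an unadjusted p under 0.05 there were 2 regulators higher and 1 lower.

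The transcripts that the mitochondrial ribosome translates mostly pointed the other way. Of 11 tested mRNAs of mitochondrial DNA, 9 had a lower heterozygous mean, and the median log2 fold change was -0.17. The median was negative in all 18 alternatives (-0.25 to -0.04, nearest to 0 without W76). The count with a higher heterozygous mean, 2 as reported, was less steady: 5 without H11, 5 without H15 and 4 without W76. The sum of the 11 mRNAs was 68060, 60130, 70460 and 60930 CPM in W32, W33, W76 and W90 and 57340, 57460, 58330 and 55990 CPM in H11, H12, H15 and H75. Every heterozygous library was below every wild-type library, W33 being the nearest. Abundant genes such as mt-Co1 and mt-Nd5 made up most of the sum. The median over the 11 genes was 0.10 in H12, above all wild-type libraries, and -0.20 to -0.04 in the other heterozygous ones. Mt-Nd5 averaged 16640 ± 1734 and 13440 ± 1514 CPM (SD, n = 4 each), with H11 above W90. Mt-Atp8 was at 582, 578, 630 and 519 CPM and at 503, 330, 472 and 501 CPM, without overlap. Its difference on the log2 scale was -0.355 (SE 0.141, adjusted p = 0.486, edgeR). Mt-Cytb was the other mRNA without overlap, at 9410, 8540, 9660 and 8870 CPM and at 8040, 8230, 8020 and 8220 CPM. Over all genes tested, 2.32% lay lower without overlap. Mt-Nd6, on the other strand of the mitochondrial genome, averaged 616 ± 96.4 and 628 ± 123 CPM. The table lists mt-Atp6 at no more than 1 count and mt-Nd4l at 0, and mt-Co3 at 16.1 to 217 CPM in wild-type and 180 to 281 CPM in heterozygous libraries. Mt-Co2 (204 ± 98.6 and 151 ± 34.0 CPM, SD, n = 4 each) and mt-Nd3 (177 ± 51.1 and 158 ± 40.4 CPM) were also far below mt-Co1 (27230 ± 2669 and 24080 ± 1325 CPM). How reads were divided among these neighbouring genes is not stated, and levels under single mitochondrial symbols are uncertain. The mitochondrial rRNAs mt-Rnr1 and mt-Rnr2, subject to the ribosomal RNA depletion, were at 932 and 1070 CPM in H75 and at 365 to 640 CPM in the other libraries.

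The cytosolic ribosomal proteins, beside which the members are set as the other ribosome of the cell, were also highest in H75 and H12. Of 82 tested, 79 had a higher heterozygous mean, the median log2 fold change was 0.25, and 17 were higher at an unadjusted p under 0.05, while edgeR called 0. Their library medians were -0.18, 0.09, -0.18 and 0.27 over the wild-type columns and 0.06, 0.36, 0.14 and 0.43 over the heterozygous ones, in the order used throughout. Without H12 and H75 the count was 71 of 82 and the median 0.09. With the length trend removed the median was 0.148 and with library totals alone 0.152, and these genes are short, with a median length of 789.5 bases. Rpl27a averaged 61.8 ± 9.60 and 86.7 ± 13.6 CPM and Rplp1 204 ± 28.1 and 274 ± 39.2 CPM (SD, n = 4 each), both without overlap of the groups. Rps12 was at 6.33 ± 0.978 and 5.75 ± 0.418 CPM and Rps27l at 88.2 ± 7.66 and 86.4 ± 9.69 CPM. The difference between the members and these genes was not tested.

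**Figure D5:**
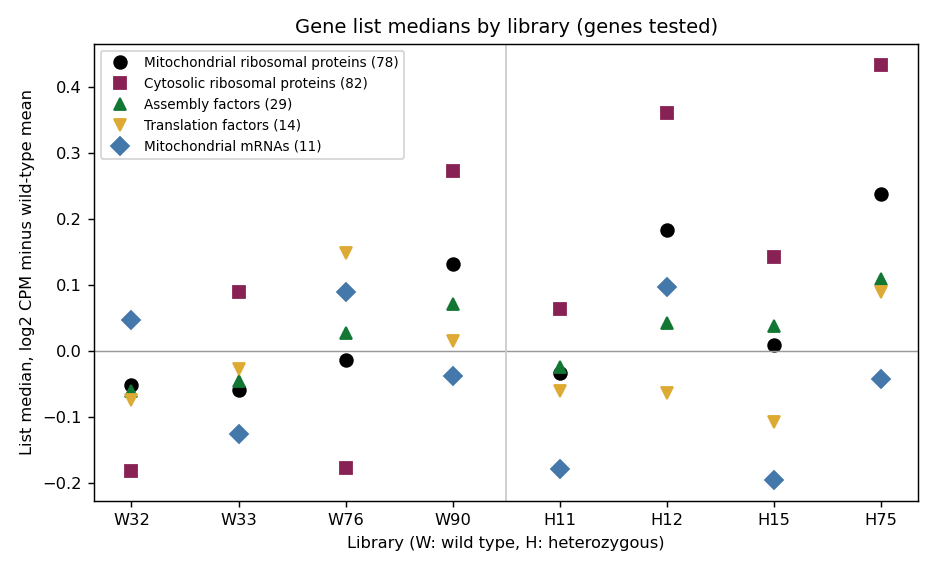
Each symbol is the median of a gene list in 1 library, as log2 CPM minus the wild-type mean, for the 78 members, 82 cytosolic ribosomal proteins, 29 assembly factors, 14 translation factors and 11 mitochondrial mRNAs. The members and the cytosolic ribosomal proteins are highest in H75 (0.24 and 0.43), and the mitochondrial mRNAs are at -0.20 to 0.10 in heterozygous libraries.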

How the data were processed

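Total RNA of liver was depleted of ribosomal RNA and sequenced, per the labels' protocols. The deposited table gives expected counts per gene as the authors' counting left them, without normalization, and 90% of its values are whole. Named are SAMtools 1.9, Bowtie2 2.2.9, fastp 0.19.5 and GATK 3.8, with genome build mm10, per the submitters' processing notes. No source used here gives the counting program, its annotation or its use of strand. The authors' deposited comparison table gives a fold ratio, a log2 fold change, a p-value, an adjusted p-value and the gene length, per the file headers.

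Counts were rounded, filtered with filterByExpr, scaled with TMM factors (0.900 to 1.06) and tested over 14261 genes with edgeR 4.0.16 (R 4.3.3), quasi-likelihood test with legacy = TRUE, group as the only term and Benjamini-Hochberg adjustment. DESeq2 1.42.0 and limma-voom 3.58.1 were alternatives. SE is the log2 fold change divided by the root of F. Deviations per library use log2 CPM with a prior count of 2. On simulated data with 14261 genes, edgeR recovered 16% of genes changed 1.5-fold, 66% at 2, 92% at 4 and 100% at 8, with 11 false among 148 calls. No library was a copy of another of its group: the chi-square of a pair was 22.6 to 184 per gene.

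Members, lists and tests were chosen with earlier results of these data known. For each subunit and direction the 4 members with the smallest p are named, with those without overlap of the groups, the 3 highest and 3 lowest per length, by the mean over both genotypes, and the paralogs of Mrps18. From each other pathway list the 2 of lowest p in each direction are named. Mt-Atp6, mt-Nd4l, mt-Co1, mt-Co2, mt-Nd3, mt-Cytb, Lcn2, Sox9, Krt19, Krt7, Epcam, Spp1, Mrpl23, Mrpl30, Mrpl42 and Mrps36 were named after their values were seen. Ict1 is a former symbol of the member Mrpl58.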

Additional observations from a re-analysis of the deposited data

Results flagged for a closer look

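Of 110 groups of 4 libraries examined, 3 had a library far from the other 3 by Dixon's test, which chance alone gives in about 1 of 20 groups. None of the 3 is a mitochondrial ribosomal protein gene. Rps27l was at 99.7 CPM in wild-type library W90 and at 83.7 to 84.9 CPM in the other wild-type libraries. Pprc1 was at 18.3 CPM in heterozygous library H12 and at 11.2 to 11.4 CPM in the other heterozygous libraries. The mitochondrial gene mt-Co3 was at 217 CPM in wild-type library W32 and at 16.1 to 33.7 CPM in the other wild-type libraries, and without W32 edgeR called it as higher in heterozygous livers (log2 fold change 3, adjusted p = 0.0326).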

How the results depend on the processing

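No paired analysis was possible because the columns of the count table carry no replicate numbers. No mitochondrial ribosomal protein gene was called under any alternative run, including an adjusted p under 0.1. The number of genes called over the whole table, 0 as reported, was 18 without a filter, 152 with DESeq2, 1 with the newer quasi-likelihood method and 1 at an adjusted p under 0.1, and ran from 0 to 252 when single libraries were left out, highest without H15 and 2 without W32. The members' median log2 fold change was 0.00234 with library totals alone, with 44 members higher. By that scaling the median of all genes was -0.0794, and 34.4% of genes were positive. Without H12 and H75 together, where a fall was built in, the members' median was -0.0147 with 35 members higher. It ran from 0.0592 (without H75) to 0.159 (without H11) when single libraries were left out. Eif2s1 passed with DESeq2 (-0.438). With library totals alone Mrpl19 was at -0.0498, Mrpl12 at -0.0294 and mt-Nd6 at -0.0708, and mt-Nd6 at -0.122 with the length trend removed. Without H12 and H75, Mrps25 was at -0.00908, Mrps18c at -0.0618, Mrps18a at -0.0742, Mrps18b at -0.0669, Mrpl12 at -0.0808, Mrrf at -0.0211, mt-Nd6 at -0.195, mt-Rnr2 at -0.26, Ptcd3 at 0.0408 and Tefm at 0.106. Leaving out single libraries turned the sign of values near 0: Mrpl49 ran from -0.0714 to 0.0158, Mrpl40 from -0.0794 to 0.004, Mrpl19 from -0.0103 to 0.0786, Mrps31 from -0.0758 to 0.0438, Mrps9 from -0.0811 to 0.0834, Rps27l from -0.112 to 0.0307, Ptcd3 from -0.0927 to 0.0488, Tefm from -0.144 to 0.0445, mt-Nd6 from -0.109 to 0.126 and mt-Rnr2 from -0.0996 to 0.402. The causes were not tested. How far depth, 52 to 2178 counts for a member in a library, limits single members was not tested against the spread between livers.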

Other observations

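Members were also divided by the ETS letters in their promoter windows, a division made after the shares were seen. All 26 members with the letters had a higher heterozygous mean (median log2 fold change 0.16), as had 34 of 43 members with a window without them (median 0.07). Over all genes tested, 59.9% of 2007 genes with the letters and 50.1% of 8304 without had a positive value. The median gene length was 1208 bases for members with the letters and 1418 bases for those without. With the length trend removed the counts were 24 of 26 and 27 of 43. With library totals alone they were 19 of 26 and 20 of 43, where 34.4% of all genes tested were positive. Without H12 and H75 they were 12 of 26 and 18 of 43, a fall built in by the choice of those libraries. For the NRF1 letters the counts were 11 of 13 with and 49 of 56 without, and for the YY1 letters 12 of 13 and 48 of 56.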
